A study of Mus musculus with 42 samples.

Results

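Lgr5Hi cells, the brightly fluorescent cells sorted from the pylorus of the Lgr5-EGFP-IRES-CreERT2 mouse line, were compared with unsorted pyloric glands of that line, labelled whole. Members were taken by sample title, which gave 4 Lgr5Hi arrays and 2 whole arrays, 6 of the 42 arrays of the series. The pylorus is the outlet region of the stomach. In this line one Lgr5 allele drives EGFP and a tamoxifen-inducible Cre recombinase, and the reporter is known to be patchy, so unlabelled cells may still transcribe Lgr5. The mice were untreated adults of at least 7 to 8 weeks and were not selected for sex. Glands were released in a chelating buffer with EDTA over 2 hours, and cells for sorting were digested with TrypLE for 10 minutes. Whether the whole samples went through the same digestion is not given in the sources used here. Each Lgr5Hi sample differs from a whole sample both in passing through the sorter and in the cells it holds, and the effects of sorting and of the cell population cannot be told apart in this comparison.

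Other groups were used for the spread or for context. These were 4 arrays of dimly fluorescent Lgr5Lo cells from the pylorus of the same line, and 3 arrays each of Lgr5Hi, Lgr5Lo and unlabelled Lgr5Neg pyloric cells from a second reporter line, Lgr5-EGFP-DTR, in which an Lgr5 allele drives EGFP and the diphtheria toxin receptor (no toxin was given). Wildtype pylorus gave 4 arrays each of Aqp5Pos and Aqp5Neg cells, sorted with an antibody. The IRES line also gave sorted and unsorted small intestine and colon.

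Pyloric glands are tubes that open into pits lined by surface mucous cells. Lgr5 encodes a receptor that strengthens Wnt signalling and marks cells at the gland base that can renew the gland. Base cells also make gland mucus and secreted enzymes, whereas pit cells make Muc5ac mucin and gastrokines and are shed after a short life. A whole gland preparation holds all of these cells, with any stroma that stays attached.

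Values were log2 intensities from the authors' table, and medians of the 10 IRES pyloric arrays lay between 4.27 and 4.52. No detection calls came with the values, so a level near or under these medians may be background and a difference that starts there may be understated. The 2 whole arrays were the most alike of the 10 (r = 0.984 over 22180 genes), with 359 genes (1.62%) more than 1 log2 unit apart and 16 more than 2 apart. Among the Lgr5Hi arrays replicate 3 stood closest to the whole arrays in 112 of the 184 genes called higher below and in 240 of the 627 called lower. One array of the series went against its title: whole colon replicate 1 correlated at 0.956 and 0.962 with the whole pylorus arrays and at 0.908 with the other whole colon array. The single whole small intestine array correlated at 0.96 to 0.973 with sorted Lgr5Lo small intestine and at 0.927 to 0.938 with unsorted crypts. Neither enters the comparison of Lgr5Hi with whole.

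The sort marker separated the groups. Lgr5 stood at 8.79, 8.08, 8.14 and 9.12 in the Lgr5Hi arrays, against 5.98 and 6.07 in the whole arrays. All 4 Lgr5Hi arrays lay above both whole arrays, and the mean difference was 2.51 ± 0.34 (SE; limma adjusted p = 0.0008), or 5.7-fold. Aqp5, a water channel of gland base cells, stood at 9.81, 10.34, 9.14 and 10.65 in Lgr5Hi arrays and at 7.94 and 7.74 in whole arrays. It was 2.14 ± 0.40 higher (limma adjusted p = 0.00678). For Lgr5 the Lgr5Lo arrays had 5.98 to 6.84, which overlaps the whole arrays.

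Across all genes limma called 811 of 22180 at an adjusted p under 0.05, of which 184 (0.83%) were higher and 627 (2.83%) lower in Lgr5Hi cells. Of these, 183 (0.825%) and 624 (2.81%) changed at least 2-fold. All 811 had arrays that did not overlap, a property also found without any test in 15.9% of genes in the higher and 14.2% in the lower direction. The falls were also larger: 23 called genes were more than 4 log2 units lower and 1 was more than 4 higher. With quantile normalization of the same values 274 genes were called higher and 490 lower, so that 35.9% of calls were higher against 22.7% here. These calls depend on having both whole arrays: without whole replicate 1 there were 51 higher and 252 lower, and without whole replicate 2 there were 32 and 104.

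**Figure D1:**
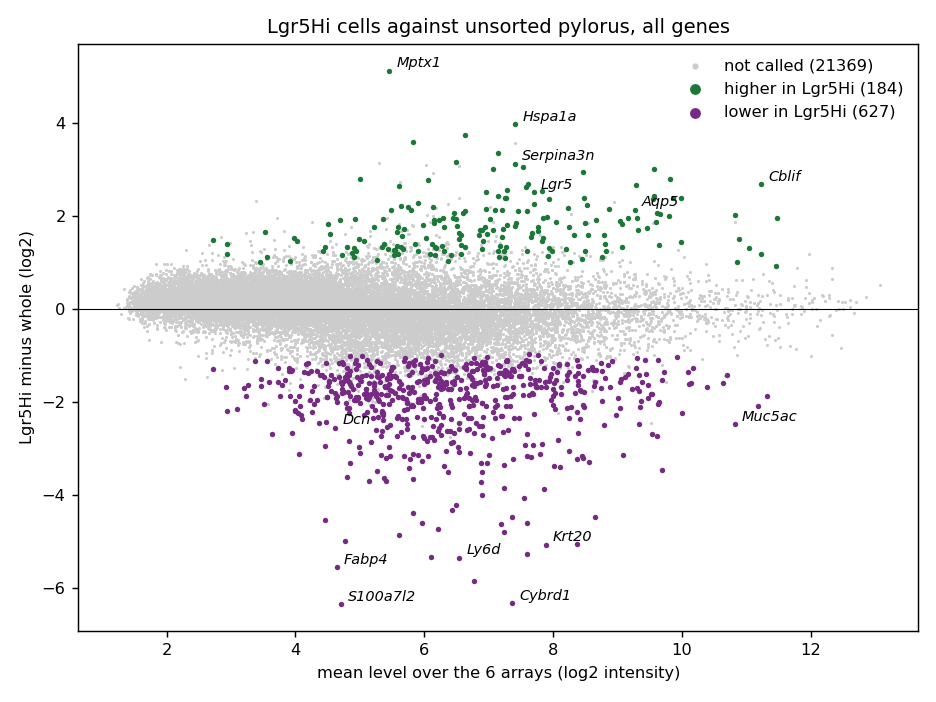
Difference between Lgr5Hi cells and unsorted pylorus (Lgr5Hi minus whole, log2) against the mean level over the 6 arrays (log2 intensity), with 1 point per gene. Genes called higher (184, green) and lower (627, purple) are coloured, and the lower ones reach 6.34 log2 units while 1 higher one passes 4.

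Genes of the gland base and of stem cells were called higher in 9 of 22 measured members and lower in none. Over all genes 0.83% were called higher and 2.83% lower. The median difference of the list was 1.25, against 0.087 over all genes. This list holds Lgr5, the sort marker, and was chosen with earlier results of these data known, so the count is a description and not a test. Serpina3n, an inhibitor of serine proteases, had 8.27, 8.57, 7.34 and 9.63 in Lgr5Hi arrays and 5.36 and 5.29 in whole arrays. Rgs5, a regulator of G protein signalling, had 10.35, 10.47, 9.90 and 9.96 in Lgr5Hi arrays and 7.23 and 7.79 in whole arrays. Both are among the 15 largest rises, which were taken only among genes whose 2 groups do not overlap. The differences were 3.13 ± 0.56 and 2.66 ± 0.43 (limma adjusted p = 0.00483 and 0.00255). Smoc2, a secreted matricellular protein, was higher by 2.44 ± 0.50 with Lgr5Hi replicate 3 at 6.35 and the other three between 8.21 and 8.75. Chad, a matrix protein (2.39 ± 0.39), Cacna2d1, an auxiliary calcium channel subunit (2.26 ± 0.36), Slc12a2, an ion cotransporter (1.51 ± 0.36), and Axin2, which damps the Wnt pathway (1.37 ± 0.34), made up the rest of the 9 with Lgr5 and Aqp5. Not called were Lrig1 (1.34 ± 0.40), Prom1 (1.03 ± 0.29), Cd44 (1.16 ± 0.47) and Olfm4 (0.95 ± 0.54), among others. With either whole array left out 3 members were called.

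Wnt target genes share the called members Lgr5 and Axin2 with that list. Of 21 measured members 5 were called higher, against 0.83% of all genes, and none lower, with a median of 0.81. Sox9, a transcription factor of gut stem and progenitor cells, had 9.40, 9.33, 8.46 and 9.92 in Lgr5Hi arrays and 7.13 and 6.63 in whole arrays. It rose by 2.40 ± 0.41 (limma adjusted p = 0.00352), with Lgr5Hi replicate 3 again the lowest. Ascl2, a transcription factor of intestinal stem cells, rose by 1.5 ± 0.29 and the Wnt inhibitor Nkd1 by 1.46 ± 0.38, both with whole arrays at or below the array medians (4.24 and 3.75 for Ascl2, 4.19 and 3.98 for Nkd1). The count was 3 without whole replicate 1, 1 without whole replicate 2 and 3 after median centring.

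Gland mucous cell genes were called higher in 5 of 10 measured members, against 0.83% of all genes, and none was called lower (median 0.96). A4gnt, the enzyme that caps gland mucin with its terminal sugar, had 9.91, 10.61, 10.14 and 10.72 in Lgr5Hi arrays and 8.01 and 7.92 in whole arrays, a rise of 2.38 ± 0.47 (limma adjusted p = 0.00957). Creb3l4 and Creb3l1, transcription factors of secretory cells, rose by 2.24 ± 0.32 and 1.91 ± 0.36, and Spdef, another, by 1.29 ± 0.29. The mucin itself, Muc6, had 11.66 to 12.44 in Lgr5Hi arrays and 11.47 to 11.56 in whole arrays and was not called (0.63 ± 0.34), and the trefoil peptide Tff2 was near 13 in every array (0.27 ± 0.23, not called). With either whole array left out the count was 1.

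Chief, parietal and acinar cell genes held 1 or 2 calls each in the higher direction, of 7, 12 and 11 measured members. Over all genes 0.83% were called higher. Among the 15 largest rises was Cblif, the gastric intrinsic factor that binds vitamin B12, which stood at 12.29, 12.16, 11.82 and 12.26 in Lgr5Hi arrays and 9.75 and 9.13 in whole arrays (2.69 ± 0.35, limma adjusted p = 0.000632). Of the 7 measured chief cell genes it was the only one called higher, the pepsinogen gene Pga5 was at 2.04 ± 0.76 without a call, and Dmbt1, a secreted scavenger-rich protein, fell by 1.20 ± 0.28. Kcnq1, a potassium channel subunit that serves acid secretion in parietal cells, was the only one of 12 parietal genes called (2.38 ± 0.30). The pancreatic-type elastase gene Cela1 rose by 1.97 ± 0.32 and the trypsin gene Try4 by 1.53 ± 0.29, 2 of 11 acinar genes.

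Other genes among the 15 largest rises came from no single list. Reg3g, an antimicrobial lectin, had 6.30, 7.15, 6.93 and 7.70 in Lgr5Hi arrays and 3.47 and 3.37 in whole arrays, where it lay under the array medians. Itln1, a lectin that binds microbial sugars, was at 7.16 to 7.99 in Lgr5Hi arrays and at 4.32 and 4.43 in whole arrays, and the complement gene C4b was at 6.98 to 8.80 and at 4.95 and 5.16 in these groups. The differences were 3.60 ± 0.69, 3.18 ± 0.60 and 3.02 ± 0.44. Pigr, the receptor that carries antibodies across the epithelium (2.39 ± 0.29), and Cfi, complement factor I (2.44 ± 0.37), were picked out after their values were seen. Reg3b, a relative of Reg3g, had 5.85, 7.67, 8.17 and 8.55 in Lgr5Hi arrays and 5.31 and 3.65 in whole arrays and was not called (3.08 ± 0.83, limma adjusted p = 0.0574). Of 16 interferon and antigen presentation genes 2 were called, both higher, against 0.83% of all genes. They were B2m, the light chain of class I molecules (1.20 ± 0.25), and Psmb8, an immunoproteasome subunit (1.26 ± 0.30). The other rises among the 15 largest were the X-linked gene Bex4 (3.35 ± 0.36), Mia, a small secreted protein (3.06 ± 0.38), Tmed6, of a family that moves cargo out of the endoplasmic reticulum (3.03 ± 0.42), Anpep, aminopeptidase N (2.80 ± 0.38), Hsd17b13, a lipid droplet enzyme (2.78 ± 0.49), and Scara3, of the scavenger receptor family (2.69 ± 0.53).

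**Figure D2:**
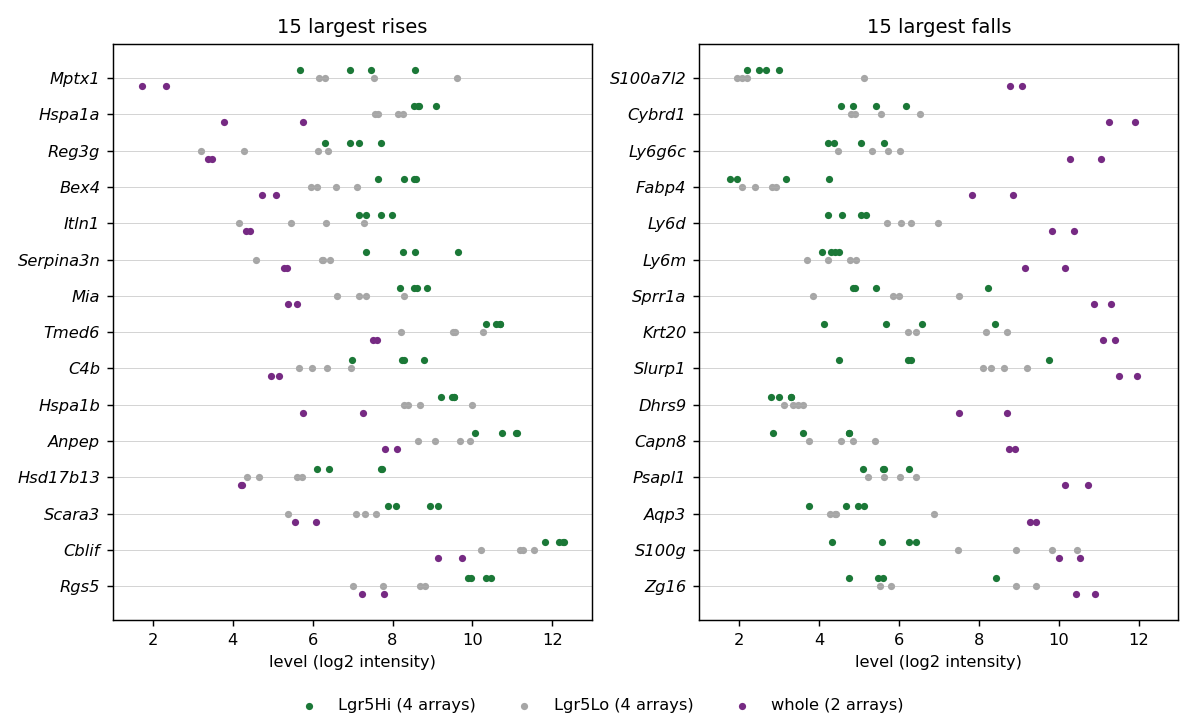
Levels (log2 intensity) of the 15 genes that rose most and the 15 that fell most in Lgr5Hi cells, with 1 point per array for Lgr5Hi (4), Lgr5Lo (4) and whole (2). The 30 genes were taken only among called genes whose whole arrays lie apart from every Lgr5Hi array. For Cybrd1 the Lgr5Lo arrays lie with the Lgr5Hi arrays at 4.80 to 6.54, against 11.25 and 11.90 in the whole arrays.

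The remaining 3 of the 15 largest rises were Mptx1, a mucosal pentraxin, and the inducible heat shock genes Hspa1a and Hspa1b. Mptx1 had 5.69, 6.93, 8.57 and 7.46 in Lgr5Hi arrays and 2.34 and 1.72 in whole arrays, a difference of 5.13 ± 0.83 (limma adjusted p = 0.00255). Hspa1a had 8.53, 8.67, 9.10 and 8.65 in Lgr5Hi arrays and 3.77 and 5.75 in whole arrays (3.98 ± 0.43, limma adjusted p = 0.000202), and Hspa1b had 9.22 to 9.55 in Lgr5Hi arrays and 5.76 and 7.25 in whole arrays (2.94 ± 0.46). The Lgr5Hi arrays were tight for both heat shock genes while the 2 whole arrays lay far apart. Of 12 heat shock genes these were the only called ones, while 0.83% of all genes were called higher. Dnajb1 was at 0.63 ± 0.38, Hspa8 at 0.31 ± 0.25, Hsp90aa1 at 0.04 ± 0.28 and Hspd1 at -0.16 ± 0.28.

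Both Lgr5 gates of the IRES line had high levels of these genes. In Lgr5Lo cells Mptx1 stood at 6.15 to 9.61 and Hspa1a at 7.55 to 8.27, so that Lgr5Hi minus Lgr5Lo was -0.24 and 0.84, neither of them called, in a comparison that shares the Lgr5Hi arrays. Hspa1a was also high in the sorted IRES small intestine (8.94 in Lgr5Hi and 9.06 in Lgr5Lo, means of 2 arrays each) and colon (8.45 and 8.18, means of 3). Its means were low in sorted cells of the other lines. They were 3.79, 4.28 and 4.79 in DTR Lgr5Hi, Lgr5Lo and Lgr5Neg cells (n = 3 each). For wildtype mice they were 3.96 (Aqp5Pos) and 4.56 (Aqp5Neg, n = 4 each). Hspa1a varied between single arrays of these lines. It reached 6.7 in DTR Lgr5Neg replicate 3 and 5.78 in Aqp5Neg replicate 1, each above both whole pylorus arrays. Among unsorted IRES groups it was at 3.33 in crypts (n = 2), the whole small intestine array had 8.00, and the whole colon arrays had 3.55 (replicate 1, whose title is in doubt) and 6.38 (replicate 2), the second of which lies above both whole pylorus arrays. Mptx1 followed a like course in the pylorus, with means of 2.21 to 3.00 in all sorted DTR and wildtype groups. It was high in the sorted colon of the IRES line (a mean of 10.78 in Lgr5Lo cells, n = 3, and as high in Lgr5Hi cells). Among unsorted arrays Mptx1 was at 8.07 in whole small intestine and 10.98 in whole colon replicate 2. It was at 4.29 and 3.73 in crypts and 2.15 in whole colon replicate 1.

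The 2 heat shock genes are near-identical neighbours on mouse chromosome 17, and their signals on the arrays may not be independent. Their promoters are shown because both rose together and the bases upstream of the start differ at only 3 of 250 positions (98.8% identical). The sequences are from RefSeq, build GRCm38.p6, on the minus strand, 5′ to 3′ and ending at the last base before the start, at chr17:34972157-34972406 for Hspa1a and chr17:34959239-34959488 for Hspa1b. Capitals mark a match to GAANNTTC, a pair of the inverted GAA units that heat shock factor binds.
Hspa1a: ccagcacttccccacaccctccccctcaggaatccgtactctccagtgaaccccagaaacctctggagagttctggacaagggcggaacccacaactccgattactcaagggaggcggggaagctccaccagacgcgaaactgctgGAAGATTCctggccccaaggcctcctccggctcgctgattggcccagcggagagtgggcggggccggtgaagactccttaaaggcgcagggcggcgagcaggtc
Hspa1b: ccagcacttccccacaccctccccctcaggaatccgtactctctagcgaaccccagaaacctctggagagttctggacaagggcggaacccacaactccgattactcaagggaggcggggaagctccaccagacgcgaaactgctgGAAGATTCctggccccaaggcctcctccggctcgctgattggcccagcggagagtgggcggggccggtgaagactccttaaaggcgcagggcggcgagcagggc
Each has 1 match, whose first base lies 104 bases before the start. The motif reads the same on both strands and was searched in windows of 300 bases, 250 before and 50 from the start on. It is found in 7.86% of 32851 such windows, and its mirror form TTCNNGAA, which was searched too and can overlap it, in 8.52%, so a match is a description and not a mark of a heat shock gene. The promoters of Lgr5, Dcn, Ly6d and Sox9 were not looked at here.

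Surface pit cell genes were called lower in 9 of 15 measured members, against 2.83% of all genes, and none was called higher (median -1.87). Muc5ac, the surface mucin, had 10.00, 8.16, 11.13 and 10.70 in Lgr5Hi arrays and 12.36 and 12.59 in whole arrays (-2.47 ± 0.59, limma adjusted p = 0.0292). Anxa3, an annexin, had 6.97, 4.87, 7.53 and 6.90 in Lgr5Hi arrays and 10.31 and 10.56 in whole arrays (-3.87 ± 0.53, limma adjusted p = 0.000879). The Lgr5Hi arrays were spread over more than 2 units for each, with replicate 2 lowest and replicate 3 highest. The stomach calpains Capn8 and Capn9 fell by 4.86 ± 0.52 and 4.33 ± 0.46, Sptssb, a small partner of serine palmitoyltransferase, by 3.30 ± 0.81, the aldehyde dehydrogenase Aldh3a1 by 2.63 ± 0.53, the mucin-like Mucl3 by 2.09 ± 0.52, the surface antigen Psca by 1.87 ± 0.43 and the adhesion gene Vsig1 by 1.10 ± 0.27. Psca was still at 9.40 to 11.32 in Lgr5Hi arrays. Well-known pit products were not called: Gkn1, a gastrokine, was at 11.52 to 12.60 in Lgr5Hi arrays and 13.02 and 13.03 in whole arrays (-0.82 ± 0.30), and Tff1, a trefoil peptide, at 11.75 to 12.57 and 12.39 in both (-0.16 ± 0.27). The calls of Aldh3a1, Muc5ac, Sptssb, Mucl3, Psca and Vsig1 depended on having both whole arrays. Across all settings tried, the difference was -3.22 to -2.2 for Aldh3a1 and -3.0 to -1.86 for Muc5ac.

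In Lgr5Lo cells the levels of called pit genes differed from gene to gene. Anxa3 had 8.29 to 8.88, above every Lgr5Hi array and below both whole arrays. In the fit without a replicate block it had no call against either (limma adjusted p = 0.0665 for Lgr5Hi minus Lgr5Lo and 0.128 for Lgr5Lo minus whole). Muc5ac had 11.02 to 11.79, and its highest Lgr5Hi array (11.13) passed the lowest Lgr5Lo array. Capn8 had 3.74 to 5.4 in Lgr5Lo arrays, which overlaps the 2.86 to 4.76 of Lgr5Hi arrays, and Aldh3a1 likewise overlapped, with up to 6.71 in Lgr5Hi arrays and 6.33 to 7.53 in Lgr5Lo arrays. In the DTR line Muc5ac stood at 5.77, 9.38 and 10.93 and Anxa3 at 4.07, 7.18 and 8.88 in Lgr5Hi, Lgr5Lo and Lgr5Neg cells (means, n = 3 each). For wildtype mice the Muc5ac means were 9.65 (Aqp5Pos) and 11.65 (Aqp5Neg, n = 4 each).

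The 15 largest falls, as the 15 rises taken among named genes with a mean of at least 6 in the higher group, included several genes of another pattern. S100a7l2, of the S100 family, had 2.49, 2.19, 2.68 and 3.00 in Lgr5Hi arrays and 9.09 and 8.78 in whole arrays, a difference of -6.34 ± 0.67 (limma adjusted p = 0.000183). Cybrd1, an iron reductase of the gut surface, had 4.84, 4.55, 6.17 and 5.44 in Lgr5Hi arrays and 11.25 and 11.90 in whole arrays (-6.33 ± 0.50, limma adjusted p = 1.45e-05). Fabp4, a fatty acid binding protein best known from fat cells, had 1.96, 1.77, 3.18 and 4.3 in Lgr5Hi arrays and 7.82 and 8.86 in whole arrays (-5.55 ± 0.56). S100a7l2 and Fabp4 lay under the array medians in each Lgr5Hi array and well above them in both whole arrays, so the 81.2-fold and 46.9-fold lower levels may be understated; Cybrd1 was 80.3-fold lower. Ly6d, a surface antigen used as a marker of squamous cells, had 5.18, 4.22, 5.05 and 4.58 in Lgr5Hi arrays and 9.83 and 10.39 in whole arrays (-5.35 ± 0.37, limma adjusted p = 5.55e-06). Its relatives of the same protein family, Ly6g6c (-5.85 ± 0.45), Ly6m (-5.34 ± 0.36) and Slurp1 (-5.04 ± 0.93), fell with it. Dhrs9, a retinol dehydrogenase (-5.00 ± 0.32), Psapl1, a prosaposin-like gene (-4.79 ± 0.37), and Aqp3, a channel for water and glycerol (-4.72 ± 0.60), fell too.

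Most of these genes were low in every sorted pyloric group, whichever gate was used. Cybrd1 averaged 5.25 in Lgr5Hi and 5.45 in Lgr5Lo IRES cells (n = 4 each), 5.13, 5.63 and 5.24 in DTR Lgr5Hi, Lgr5Lo and Lgr5Neg cells (n = 3 each) and 5.06 (Aqp5Pos) and 4.95 (Aqp5Neg) in wildtype cells (n = 4 each), against 11.58 in whole pylorus (n = 2). S100a7l2, Fabp4, Ly6m and Psapl1 had the same course, with means of at most 2.84, 2.88, 5.01 and 5.83 in any sorted pyloric group and of 8.93, 8.34, 9.66 and 10.44 in whole pylorus. Slurp1 did not: it stood at 4.84, 5.75 and 7.62 in DTR Lgr5Hi, Lgr5Lo and Lgr5Neg cells. Some of the genes were high in unsorted tissue elsewhere. Ly6m averaged 4.30 and 4.16 in sorted Lgr5Hi and Lgr5Lo small intestine and 9.06 in unsorted crypts (n = 2 each), and Aqp3 averaged 4.13 and 4.62 in the sorted cells and 6.70 in crypts. Cybrd1 stood at 5.54 and 4.89 in the sorted cells and at 5.56 in crypts.

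**Figure D3:**
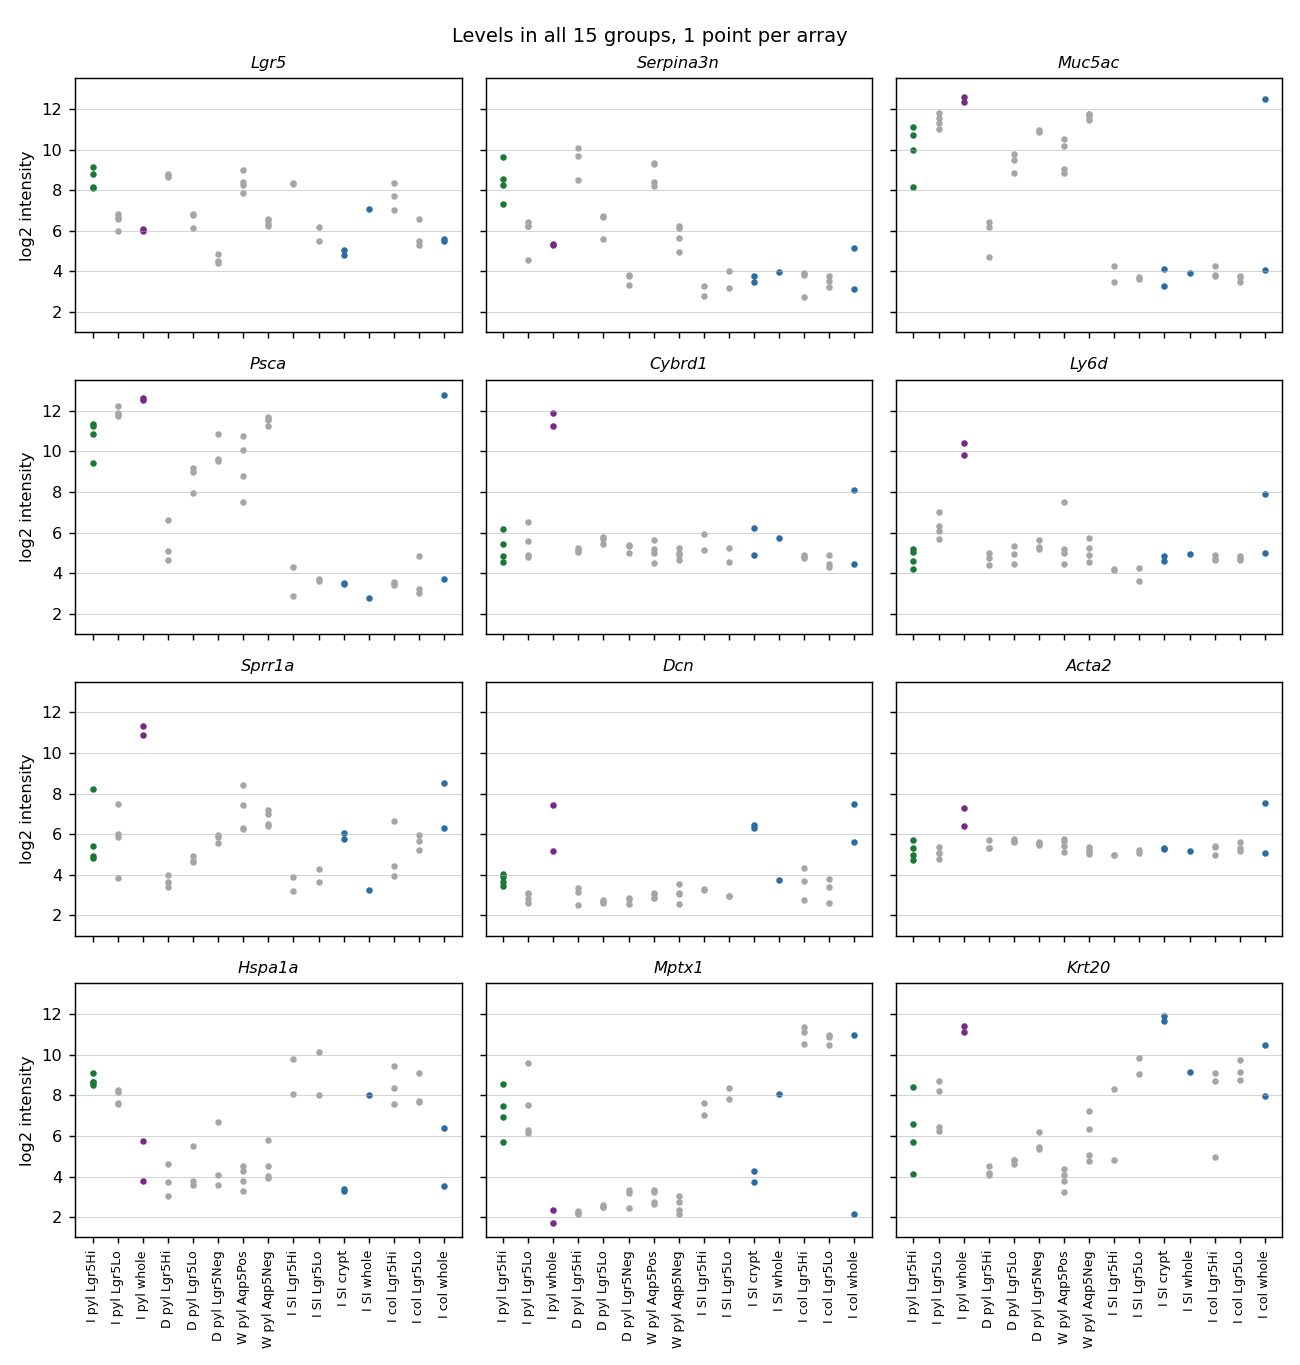
Levels (log2 intensity) of 12 genes in all 15 groups, with 1 point per array (I, IRES line; D, DTR line; W, wildtype; pyl, pylorus; SI, small intestine; col, colon). Lgr5Hi pylorus is green, whole pylorus purple, other unsorted groups blue and other sorted groups grey, and for Cybrd1 whole pylorus at 11.25 and 11.90 stands above every sorted group. For Muc5ac and Psca the upper of the 2 whole colon points is replicate 1.

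Krt20, S100g, Sprr1a and Zg16 were also among the 15 largest falls. Krt20, a keratin of mature gut epithelium, had 5.69, 4.12, 8.40 and 6.59 in Lgr5Hi arrays and 11.11 and 11.42 in whole arrays, and Sprr1a, a cornified envelope protein also made by injured epithelium, had 4.91, 4.84, 8.22 and 5.42 against 10.88 and 11.32. Their differences were -5.07 ± 0.90 and -5.26 ± 0.91 (limma adjusted p = 0.00458 and 0.00375), and Lgr5Hi replicate 3 was the highest of its group in both. S100g, a calcium-binding protein, fell by 4.62 ± 0.69 and Zg16, a goblet cell lectin, by 4.61 ± 1.07. Of 19 epithelial genes Krt8 (-1.59 ± 0.27), Krt19 (-1.69 ± 0.38) and Krt20 fell, and Ehf, an epithelial transcription factor, rose by 1.07 ± 0.25, while the other 15 were not called (list median -0.47). Of 17 intestinal genes Fcgbp (-4.06 ± 0.61), Lypd8 (-3.46 ± 0.82) and Alpi (-3.16 ± 0.78) fell while Anpep and Reg3g rose. Over all genes 0.83% were called higher and 2.83% lower.

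Further large falls were picked out after their values were seen. Cdkn1a, the cell cycle inhibitor p21, had 6.82, 6.91, 6.56 and 7.28 in Lgr5Hi arrays and 10.29 and 10.25 in whole arrays (-3.38 ± 0.28, limma adjusted p = 2.11e-05). Mxd1, a Myc antagonist (-3.30 ± 0.54), Egln3, an oxygen-sensing hydroxylase (-3.69 ± 0.68), Ndrg1, a differentiation and stress gene (-3.39 ± 0.34), Shh, a signalling ligand of gastric epithelium (-3.65 ± 0.61), Slco2a1, a prostaglandin transporter (-4.48 ± 0.52), and Clca1, a secreted goblet cell product (-4.47 ± 0.74), were lower too. In Lgr5Lo cells Cdkn1a stood at 8.56 to 9.22, between the other groups. The immediate early genes, often induced by tissue handling, held 1 call of 21, while 2.83% of all genes were called lower. This was Klf4, also a factor of differentiated epithelium, which fell by 2.37 ± 0.34.

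Of 21 measured mitotic genes 3 were called lower in Lgr5Hi cells, against 2.83% of all genes. All 21 had a difference below 0 (median -0.87), and the called ones were the kinesin Cenpe (-1.58 ± 0.33), Hmmr (-1.16 ± 0.29) and Cdc20, an activator of the anaphase-promoting complex (-1.05 ± 0.27). Of 17 DNA replication genes none was called (median -0.37). No mitotic gene was called without either whole array, and 1 was called after quantile normalization.

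Among hormone and sensory cells, Ghrl, the gene of ghrelin, stood at 7.65, 8.95, 7.96 and 7.57 in Lgr5Hi arrays and 11.20 and 11.15 in whole arrays (-3.14 ± 0.39, limma adjusted p = 0.000448). It was the only one of 23 enteroendocrine genes called, while 2.83% of all genes were called lower, so the count says little about the list. Chga, a general marker of these cells, was at -1.36 ± 0.63. In Lgr5Lo cells Ghrl was at 10.70 to 11.84, a range that holds both whole arrays. Of 18 tuft cell genes only Avil, an actin-binding protein, was called (-1.87 ± 0.35), again a single call beside 2.83% of all genes. The tuft list median was 0.67.

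**Figure D4:**
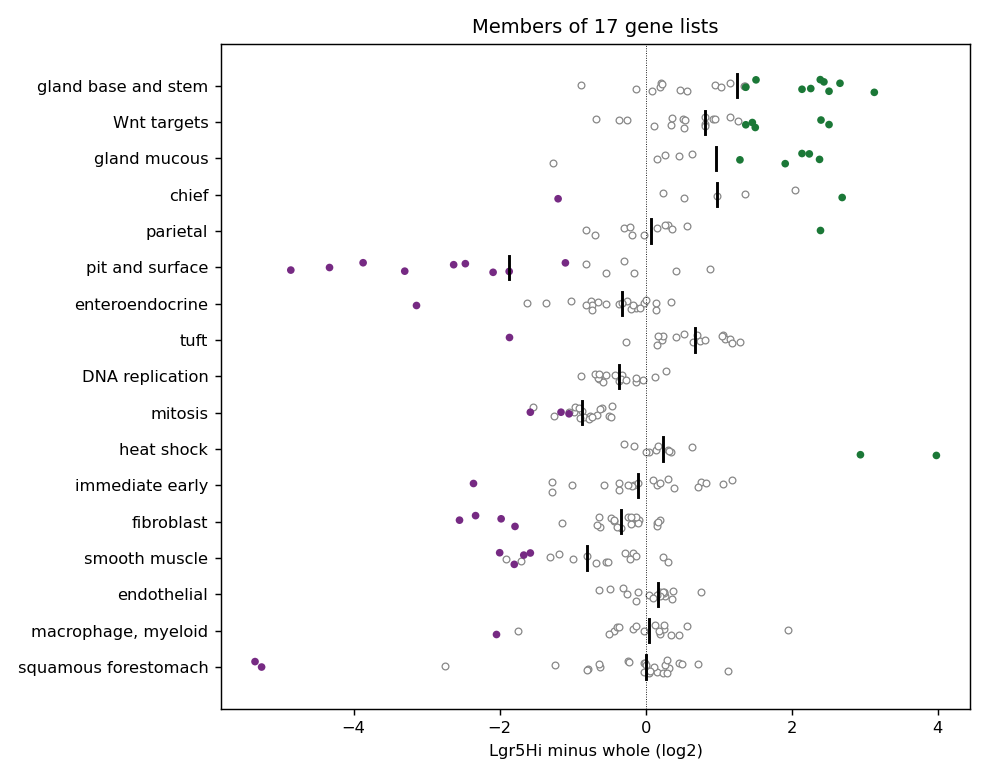
Difference between Lgr5Hi cells and unsorted pylorus (Lgr5Hi minus whole, log2) for the measured members of 17 gene lists, with 1 point per gene, filled where called (green higher, purple lower), and a bar at the list median. Gland base and stem genes have 9 of 22 filled green points and pit and surface genes 9 of 15 filled purple points, while the fibroblast, smooth muscle and squamous lists hold 4, 4 and 2 filled points. Over all genes 0.83% were called higher and 2.83% lower.

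Fibroblast and smooth muscle genes were called lower in 4 of 25 and 4 of 19 measured members, against 2.83% of all genes, and 21 and 17 members had a difference below 0. In bulk samples fewer cells of a type and less RNA per cell cannot be told apart. Dcn, a fibroblast proteoglycan, had 3.67, 3.44, 3.89 and 4.06 in Lgr5Hi arrays and 7.46 and 5.17 in whole arrays, which were 2.29 apart from each other (-2.55 ± 0.46, limma adjusted p = 0.00476). Without whole replicate 1 it was -1.41 and no longer called (limma adjusted p = 0.0952). Gsn, an actin-severing protein (-2.33 ± 0.32), Dpt (-1.98 ± 0.35) and Serping1, a complement inhibitor (-1.79 ± 0.40), were the other called members of 25 fibroblast genes, all lower, and the list median was -0.34. The collagen genes Col1a1, Col1a2 and Col3a1 lay at 3.75 to 4.78 in the whole arrays, at about the array medians, with differences of -0.14, -0.34 and -0.44 that were not called. The fibroblast list's summed level was 8.86 to 9.21 in Lgr5Hi arrays and 10.01 to 10.44 in whole arrays on the log2 scale. Gsn alone stood at 6.34 to 7.01 in Lgr5Hi arrays and at 9.02 and 9.03 in whole arrays. The sum therefore does not stand for the list as a whole. Of 19 smooth muscle genes 4 fell: Acta2 (-1.67 ± 0.33), Actg2 (-1.80 ± 0.35), Tpm1 (-1.58 ± 0.26) and Tpm2 (-2.0 ± 0.36). Myh11 and Des, other members of the list, were at -1.19 ± 0.33 and -1.31 ± 0.35 without a call. The summed level of the list was 8.62 to 8.86 in Lgr5Hi arrays and 9.81 to 10.16 in whole arrays. Without whole replicate 1, only 1 fibroblast gene and 1 smooth muscle gene were called.

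None of 18 endothelial, 15 neural and glial, 15 lymphocyte, 9 mast cell and 6 mesothelial genes, nor the 1 measured erythroid gene, was called. Of 18 macrophage and myeloid genes Cd68 fell (-2.05 ± 0.35), and Lyz2 was at 6.26 in one whole array and 3.86 in the other. Fabp4 and Cidec, a lipid droplet protein (-3.31 ± 0.31), were the called ones of 7 adipocyte genes, while Plin1 and Retn were at 3.85 to 4.52 in Lgr5Hi arrays and at 3.79 to 3.96 in the whole arrays. Tnni2, the fast skeletal troponin I, fell by 3.99 ± 0.34 and the other 9 skeletal muscle genes were not called. Sfrp2, a secreted Wnt modulator, was the called member of 25 Wnt niche genes (-1.31 ± 0.25), Ano1, a chloride channel, that of 5 interstitial cell genes (-1.89 ± 0.41), and Rgs5, counted above, that of 8 pericyte genes. No ribosomal protein gene (of 23), no endoplasmic reticulum folding gene (of 19) and 1 of 22 oxidative phosphorylation genes (Ndufa1, 1.02 ± 0.23) was called. Over all genes 0.83% were called higher and 2.83% lower, so a single call says little about any of these lists.

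Of 27 measured genes of the squamous forestomach, which borders the glandular stomach, Ly6d and Sprr1a were called, both lower. Over all genes 2.83% were called lower. The list median was 0.01. The defining basal genes Krt14 and Trp63 were at 3.36 to 3.97 and at 3.50 to 3.73 in Lgr5Hi arrays, against 3.57 and 3.77 and 3.32 and 3.22 in the whole arrays, all under the array medians (both were added after their values were seen). Krt4, Krt13, Ivl and Lor, which mark the upper squamous layers, were at 2.88 to 5.59 in Lgr5Hi arrays and 2.85 to 4.53 in the whole arrays, and were not called. Serpinb5 had 8.00 and 8.48 in the whole arrays and 3.44 to 7.45 in Lgr5Hi arrays (-2.75 ± 0.75, not called). The keratin Krt15 had 4.92 and 5.08 in the whole arrays and 3.04 to 4.18 in Lgr5Hi arrays (-1.24 ± 0.35, not called). In the whole arrays Krt14, Trp63, Krt4, Krt13, Ivl and Lor thus lay near or under the array medians, and Krt15 and Serpinb5 above them. Which cells gave the high Ly6d of the whole arrays was not tested. The summed level of the list was 9.35 to 10.26 in Lgr5Hi arrays and 11.93 to 12.34 in whole arrays, where Ly6d and Sprr1a made up 71.9% and 74.9% of the sum on the linear scale.

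Arrays of the DTR line, none of which enters the comparison above, were set beside the called genes, a step chosen after the data were seen. There Lgr5Hi cells were set against Lgr5Neg cells, both sorted, and limma called 1960 genes (8.84%) higher and 2102 (9.48%) lower. Of the 184 genes higher in IRES Lgr5Hi cells than in whole pylorus, 163 (88.6%) were also higher in DTR Lgr5Hi cells. They are 8.32% of the genes called higher in the DTR line. Of the 627 lower genes, 371 (59.2%) were lower there too, which is 17.6% of the genes called lower in the DTR line, while 249 (39.7%) were not called. Called genes have higher levels than most: among genes above the median level 15.2% were called higher and 17.1% lower in the DTR line, against 158 of 175 (90.3%) and 356 of 580 (61.4%) for the called genes above that level. With all 42 arrays in a single fit the shared calls were 141 higher and 220 lower.

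The exceptions named genes already met. Opposite calls among the rises were Mptx1 (-0.79 in the DTR line), Hspa1b (-2.30) and the gene model Gm6909 (-1.03), and Hspa1a was at -1.0 without a call. Of the 15 largest rises 12 were called higher in the DTR line, led by Serpina3n (5.77), Cblif (5.71) and Reg3g (4.21). Of the 15 largest falls 8 were called lower there, among them S100g (-3.02), Slurp1 (-2.79) and Zg16 (-2.38), and 7 were not called: S100a7l2 (0.04), Cybrd1 (-0.11), Fabp4 (-0.19), Ly6d (-0.66), Ly6m (0.16), Psapl1 (-0.45) and Aqp3 (-0.20). The last 7 were low on both sides of the DTR comparison. Opposite calls among the falls were Lmo7, Leng8, Rasef, Acacb, Clmn, the nuclear RNA Neat1 and the semaphorin Sema3e, of which Sema3e was lowest in IRES Lgr5Hi cells (-2.93 ± 0.42) and stood at 0.64 in the DTR line. Gkn1 and Tff1, not called in the IRES comparison, were at -3.93 and -2.26 in the DTR line, and Ghrl at -0.93 was not called there.

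**Figure D5:**
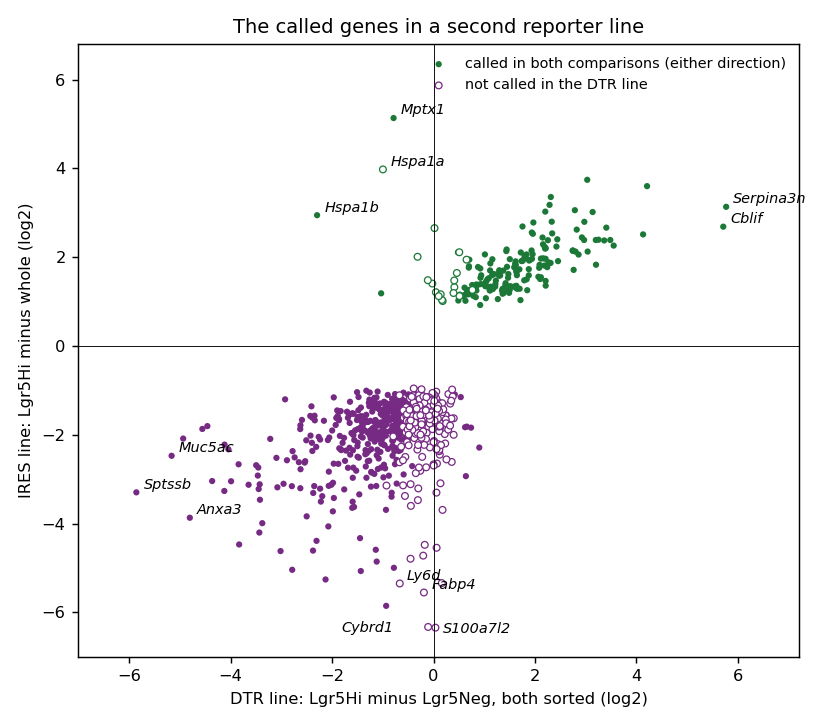
Difference between Lgr5Hi cells and unsorted pylorus in the IRES line (vertical, log2) against the difference between sorted Lgr5Hi and Lgr5Neg cells in the DTR line (horizontal, log2) for the 811 called genes. Filled points are called in both comparisons; most rises (163 of 184) lie to the upper right, whereas Cybrd1, S100a7l2, Fabp4 and Ly6d lie near 0 on the horizontal axis.

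Set beside the sorted comparison of the same line, whole pylorus gave more calls. Lgr5Hi minus Lgr5Lo held 53 genes called higher (0.239%) and 77 lower (0.347%), or 121 and 158 with the replicate block, as the equally numbered arrays of these groups go together. Lgr5Lo minus whole held 24 (0.108%) and 201 (0.906%). These comparisons share arrays with Lgr5Hi minus whole, so only the values of single genes are given, from the fit without the block. Cybrd1 was at -0.20 for Lgr5Hi minus Lgr5Lo and -6.13 for Lgr5Lo minus whole, Ly6d at -1.51 and -3.84, Hspa1a at 0.84 and 3.14, Lgr5 at 2.02 and 0.49, and Ghrl at -3.20 and 0.06. Lgr5 and Ghrl were called between the sorted gates but not between Lgr5Lo cells and whole glands, the reverse held for Cybrd1 and Hspa1a, and Ly6d was called in each comparison.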

How the data were processed

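RNA of at least 2 ng was amplified to cDNA, labelled with biotin and hybridised to Affymetrix mouse gene arrays, per the labels' protocols. Values deposited by the authors are log2 probe set intensities, made with RMA per the submitters' processing notes, which also name oligo, limma 3.26.8, R 3.2.3 and Partek without a role. It has 41345 probe sets and 42 arrays, values from 0.574 to 13.606 and none missing. Raw arrays were not used here. Platform annotation gave 1 symbol to 23521 probe sets, several to 1814 and none to 16010. The probe set with the highest mean stood for each of 22180 genes, 1082 of which had several. Gene identifiers of 23328 probe sets matched RefSeq, 193 did not, and no symbol changed.

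In limma 3.58.1 (R 4.3.3) group means were estimated from the 4 Lgr5Hi, 4 Lgr5Lo and 2 whole arrays of the IRES pylorus, with 7 residual degrees of freedom, moderated variances and p-values adjusted by Benjamini-Hochberg across the 22180 genes. Calls needed an adjusted p under 0.05. The labels call the arrays biological replicates, and their small number limits the precision. The DTR arrays, whose mouse model field names the other line although their titles name DTR, were fitted on their own. Members and the 34 gene lists were chosen with earlier results of these data known, and lists got counts and medians, with no test. Genes were named by rule: Lgr5, Dcn, Ly6d and Aqp5; the 15 largest rises and falls among called genes that did not overlap and had a mean of at least 6 in the higher group, leaving out gene models, small RNAs, antigen receptor segments, Xist, Tsix and Y-linked genes; and up to 4 members of each list, called first. Members beyond these 4 and the genes said to be picked out were named after their values were seen. Clca1, Slco2a1, Shh, Cdkn1a, Ndrg1, Mxd1, Egln3, Pigr, Cfi, Krt14 and Trp63 belong to the second kind.

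Equally numbered Lgr5Hi and Lgr5Lo arrays deviated together (r = 0.162, 0.104, 0.273 and 0.296), and the block is given beside the counts of their comparison. Values and calls of single genes for Lgr5Hi minus Lgr5Lo are from the fit without the block. Data were also simulated for 22180 genes, with normal noise drawn independently for each array. There the Lgr5Hi minus whole fit recovered 67 of 100 genes changed by 2 log2 units and 6 of 100 changed by 1. It made 5 false calls in 78. The simulation lacks the shared deviations of equally numbered arrays, so these rates may not hold for the real arrays. Other arrays in the fit, the block, moderation, scaling, filter, probe set choice and each array left out were tried as alternatives, and leaving out Lgr5Lo arrays and the DTR comparison were added after the data were seen.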

Additional observations from a re-analysis of the deposited data

Results flagged for a closer look

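In groups of 4 arrays, 1 array stood apart from the other 3 in 10 of 190 groups tested, by Dixon's criterion, and chance alone gives about 1 in 20. In the Lgr5Hi group Krt8 was low in replicate 2 (9.63, others 10.22 to 10.31), Chad was low in replicate 3 (10.02, others 10.99 to 11.08) and Mxd1 was low in replicate 1 (4.83, others 5.98 to 6.18). In Lgr5Lo replicate 3, the array least like the other 9 pyloric arrays (median r = 0.925), Serpina3n was at 4.58 (others 6.23 to 6.44) and Sox9 at 7.19 (others 8.30 to 8.37). In Lgr5Lo replicate 4, S100a7l2 was at 5.14 (others 1.94 to 2.20), Aqp3 at 6.89 (others 4.28 to 4.42) and Try4 at 6.74 (others 7.25 to 7.29). Vsig1 was at 10.22 in Lgr5Lo replicate 1 (others 9.62 to 9.72), and Tnni2 was at 5.69 in Lgr5Lo replicate 2 (others 6.38 to 6.48).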

How the results depend on the processing

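For Lgr5Hi minus whole the counts were 184 higher and 627 lower. They were 288 and 832 with only the 6 arrays in the fit, and 367 and 959 with all 25 IRES arrays. Without whole colon replicate 1 among these they were 444 and 1094. They were 649 and 1282 with all 42 arrays, and 364 and 758 with the replicate block. The whole arrays offer 2 pairs with Lgr5Hi arrays, with r of 0.008 and 0.036. Deviations of 2 arrays from their mean mirror each other, so these values cannot decide whether the numbers pair the groups. No pairing was assumed. Leaving out 1 array at a time gave 32 to 285 higher and 104 to 812 lower, the lowest without whole replicate 2. For Lgr5Hi minus Lgr5Lo, with 53 and 77, the counts were 134 and 196 with all 25 IRES arrays, 202 and 316 without whole colon replicate 1, and 121 and 158 with the block. For Lgr5Lo minus whole, with 24 and 201, these settings gave 77 and 393, 144 and 525, and 99 and 330. The cause of these moves was not tested. Leaving out 1 array could not reverse a called gene, since its Lgr5Hi and whole arrays do not overlap. Without the block, arrays of other groups did not enter the difference at all. Settings were run for 95 called genes (list members, the largest changes and those picked out), none of which changed direction. Of these, 48 kept their call without whole replicate 1 and 39 without whole replicate 2, against 79 or more under every other setting. Levels near the array medians carry no detection call, and 2 whole arrays set the precision: Lgr5, Ly6d, Cybrd1, Hspa1a and S100a7l2 were called under every setting, whereas Cdc20, Hmmr, Dmbt1, Axin2, Psmb8, Zg16, Muc5ac, Sptssb, Mucl3, Vsig1, Alpi and Nkd1 lost their call in 7 or more.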
